A study of Mus musculus with 4 samples.

Results

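Histones are the proteins that package DNA, and the genes that encode them were followed here in 4 mouse tumours treated with vehicle or with TAK-931, an inhibitor of CDC7, the kinase that fires origins of DNA replication. Genes were taken by symbol: those of the Hist1, Hist2 and Hist3 clusters and Hist4h4, and those starting with H1f0, H3f3, H2afz, H2afv or H2afy. This gave 76 genes of the 24421 counted. Of these, 64 were replication-dependent genes, 8 were variant genes, and 4 were testis genes or a pseudogene.

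The tumours were allografts of J558, a mouse plasma cell myeloma line, grown under the skin of the right flank of female BALB/c mice. Vehicle mice received 0.5% methylcellulose by mouth. TAK-931 mice received 60 mg/kg by mouth once daily for 6 days. Bulk RNA was sequenced from 2 independent samples per group, named Vehicle-1, Vehicle-2, TAK-931-1 and TAK-931-2, and all 4 tumours came from the same line in mice with an intact immune system. Vehicle-1 and TAK-931-1 were the tumours that the study took as representatives for further assays.

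A nucleosome is built from histones H2A, H2B, H3 and H4, and linker histone H1 binds the DNA between nucleosomes. Replication-dependent histone genes lie in clusters, mostly lack introns, and are transcribed in S phase. Their mRNAs typically end in a stem-loop bound by SLBP instead of a poly(A) tail, and are degraded when DNA synthesis stops. Variant histone genes are transcribed through the whole cell cycle and give polyadenylated mRNAs. Among them, H1f0 encodes linker histone H1.0, known from cells that differentiate or stop dividing, whereas H3f3a and H3f3b both encode H3.3, and H2afz and H2afv encode forms of H2A.Z.

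The libraries held between 16487902 and 19589339 counts in genes. Levels are given as library-scaled counts (CPM, the count of a gene over the TMM-scaled total, times 1000000), and levels of different genes were compared per kilobase of the counted gene model (RPKM). The plasma cell markers were present in every library, with sums of 9717 and 10290 CPM under vehicle and 4801 and 13650 CPM in TAK-931-1 and TAK-931-2, and all 8 of them were below both vehicle libraries in TAK-931-1 against 3 in TAK-931-2, where 47.4% and 44.4% of all genes tested were. Both treated libraries held more RNA of T cell, macrophage and fibroblast markers, and TAK-931-1 stood apart. The 8 T cell markers summed to 27.3 and 17.3 CPM under vehicle and to 1128 and 71.8 CPM under TAK-931. The 8 macrophage markers summed to 465 and 394 CPM under vehicle and to 6600 and 1188 CPM under TAK-931. The 7 fibroblast markers summed to 1883 and 2138 CPM under vehicle and to 14790 and 5101 CPM under TAK-931. The 6 endothelial markers summed to 224 and 241 against 803 and 236 CPM, and the 5 skeletal muscle markers to 81.6 and 85.8 against 556 and 11.4 CPM. No marker was at 0 in all libraries. In bulk tumour RNA, fewer cells of a type and less RNA per cell cannot be told apart, and the part of this shift in tissue composition in the histone values below was not tested beyond the ratios to the plasma cell markers given with them.

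The clearest difference among the histone genes was in the linker histones. H1f0 differed most: it stood at 1004 and 855 CPM in the vehicle tumours and at 81.2 and 145 CPM in TAK-931-1 and TAK-931-2. The groups did not overlap, and every vehicle library was between 5.89 and 12.4 times as high as every treated library, whereas the vehicle libraries differed from each other by 1.17 times and the treated libraries by 1.79 times. The means were 929.6 ± 105 and 113 ± 45.2 CPM (SD, n = 2 each), a log2 fold change of -3.04 (SE 0.39). Among the 13669 genes tested, H1f0 held rank 7 both by p and by the size of the fall. Its unadjusted p was 0.00111, and its Benjamini-Hochberg adjusted p was 0.275 in edgeR's quasi-likelihood test, the lowest adjusted value of any gene in that fit, so that 0 of 13669 genes (0.0%) and 0 of 40 histone genes tested were called. At an unadjusted p under 0.05, 2475 genes (18.1%) and 3 of the 40 histone genes passed, and by DESeq2 1411 genes (10.3%) and 3 of the 40 (7.5%) had an adjusted p under 0.05.

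The call for H1f0 depended on the tool and on the model. DESeq2 gave it an adjusted p of 6.14e-09, in a fit that called 1.11% of all genes as lower, and limma-voom gave 0.342. With the replicate number added to the edgeR model, H1f0 had an adjusted p of 0.0411, where 1.05% of all genes were called. Over all alternatives its adjusted p ranged from 6.14e-09 to 0.546 and its log2 fold change from -3.54 to -2.68. The difference was thus not carried by 1 treated tumour: it was -2.68 without TAK-931-1 and -3.54 without TAK-931-2. H1f0 RNA was also lower in proportion to the plasma cell markers, with 0.103 and 0.0832 CPM of H1f0 per CPM of marker under vehicle and 0.0169 and 0.0106 under TAK-931. Without Jchain, which made up 52.3% to 65.3% of that marker sum, the ratios were 0.216 and 0.185 against 0.0488 and 0.0263, and again the groups did not overlap.

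Hist1h1c, which encodes the replication-dependent linker histone H1.2, was also lower. Its levels were 88.2 and 85.1 CPM under vehicle and 30.9 and 35.1 CPM under TAK-931. Both treated libraries were thus well under both vehicle libraries, by between 2.42 and 2.86 times, and libraries of the same group were within 1.14 times of each other. On the log2 scale the difference was -1.39 (SE 0.21), at an unadjusted p of 0.0019 and rank 21 of all genes by p. The edgeR adjusted p was 0.275 and that of DESeq2 0.00191, within a range over alternatives of 0.00026 to 0.728. Per CPM of plasma cell marker, Hist1h1c was at 0.00907 and 0.00827 under vehicle and 0.00643 and 0.00257 under TAK-931. Without Jchain, TAK-931-1 lay between the vehicle libraries, at 0.0186 against 0.019 and 0.0184, and only TAK-931-2 was lower, at 0.00636.

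The remaining linker genes were far less abundant. Hist1h1e was at 2.25 and 3.12 CPM under vehicle and 1.79 and 0.933 CPM under TAK-931, with no overlap, a log2 fold change of -0.97 (SE 0.68) and an unadjusted p of 0.22, and it was chosen for naming after its values were seen. Hist1h1d and Hist1h1b overlapped between groups, and Hist1h1a was too low to test. All 4 tested replication-dependent H1 genes had log2 fold changes below 0, with a median of -0.80.

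The 6 linker genes followed here leave out H1fx, which was at 0.391 and 0.96 RPKM under vehicle and 6.99 and 0.385 RPKM under TAK-931. In RNA per kilobase, H1f0 made up 77.5% and 74.7% of the total of these 6 under vehicle and 42.8% and 54.6% under TAK-931. Hist1h1c made up 21.5% and 23.5% under vehicle and 51.3% and 41.7% under TAK-931. The share of Hist1h1c was thus higher in treated tumours although its own level was lower, since H1f0 was lower by more. The summed RPKM of the 6 linker genes was 566 and 500.2 under vehicle and 82.9 and 116 under TAK-931, a log2 ratio of means of -2.42 with an exact permutation p of 0.333 (two-sided), which is the smallest p that 2 against 2 libraries can give.

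**Figure D1:**
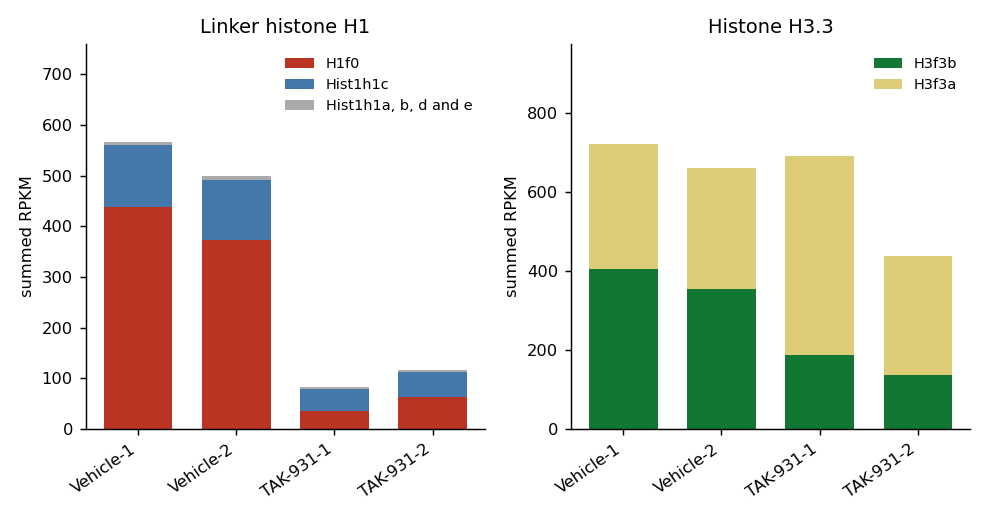
Stacked bars of summed RPKM (CPM per kilobase, axis from 0) in each of the 4 libraries, with a panel for the linker histone H1 genes and a panel for the H3.3 genes. The H1f0 segment shrinks from 438 and 374 RPKM under vehicle to 35.5 and 63.4 RPKM under TAK-931, and the H3f3b segment shrinks from 403 and 354 RPKM to 186 and 137 RPKM, whereas H3f3a stands at 318 and 305 RPKM against 504 and 300.6 RPKM.

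The H3.3 genes encode the same protein but were not lower together. H3f3b was at 804 and 706 CPM under vehicle and 370 and 273 CPM under TAK-931, with no overlap and every vehicle library 1.91 to 2.95 times as high as every treated library. The fitted difference was -1.23 on the log2 scale (SE 0.28), at an unadjusted p of 0.00888 and rank 211 by p. The edgeR adjusted p was 0.275 and that of DESeq2 0.0128, in a range over alternatives of 0.000122 to 0.981. H3f3a was at 342 and 329 CPM under vehicle and 543 and 323 CPM under TAK-931, so that only TAK-931-1 lay above the vehicle libraries. On the log2 scale it differed by 0.37 (SE 0.33), and leaving out TAK-931-1 turned this to -0.06 while leaving out TAK-931-2 gave 0.67.

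H3f3a therefore supplied a larger part of the H3.3 RNA in both treated tumours, 73.1% and 68.7% per kilobase against 44.1% and 46.3% under vehicle. The ratio of H3f3b to H3f3a in RPKM, which is free of library scaling, was 1.27 and 1.16 under vehicle and 0.368 and 0.456 under TAK-931. The total of both genes overlapped between groups on the per-kilobase scale, at 721 and 660 RPKM under vehicle and 690.2 and 438 RPKM under TAK-931. Per CPM of plasma cell marker, H3f3b was at 0.0827 and 0.0686 under vehicle and at 0.0771 and 0.02 under TAK-931, so that TAK-931-1 lay between the vehicle libraries on this scale. Without Jchain the ratios were 0.173 and 0.152 against 0.222 and 0.0494, so that TAK-931-1 lay above both vehicle libraries and only TAK-931-2 below them.

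**Figure D2:**
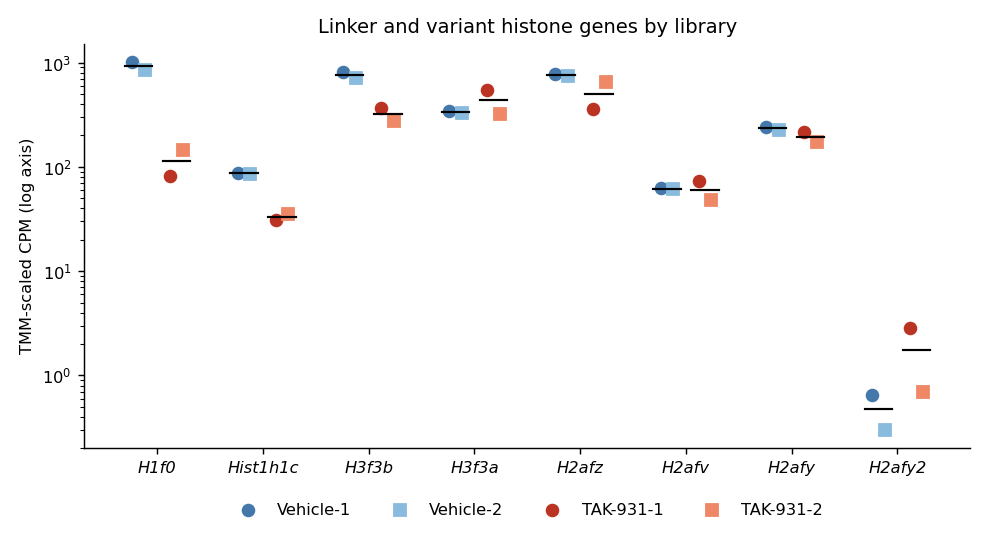
TMM-scaled CPM on a log axis of the linker and variant genes in each library, with a short line at each group mean (n = 2). H1f0, Hist1h1c and H3f3b show both treated points under both vehicle points, whereas the points of H3f3a and H2afv overlap between groups.

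The promoters of these 4 genes are shown because H1f0, Hist1h1c and H3f3b, which were lower, have promoters of different kinds, and H3f3a is the partner of H3f3b. Each run gives the 250 bases before the RefSeq start on GRCm38.p6, written in the direction of transcription. Capitals mark matches on either strand to CCAAT (the CCAAT box), AAACACA (the H1 box of linker histone genes), TATAAA (the TATA box) or ATTTGCAT (the octamer).
H1f0, chr15:79027962-79028211, plus strand: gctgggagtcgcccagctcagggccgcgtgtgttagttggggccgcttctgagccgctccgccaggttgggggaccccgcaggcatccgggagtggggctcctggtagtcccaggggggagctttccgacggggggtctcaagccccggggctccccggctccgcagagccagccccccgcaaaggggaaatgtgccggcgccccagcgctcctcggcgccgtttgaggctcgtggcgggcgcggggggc
Hist1h1c, chr13:23738557-23738806, plus strand: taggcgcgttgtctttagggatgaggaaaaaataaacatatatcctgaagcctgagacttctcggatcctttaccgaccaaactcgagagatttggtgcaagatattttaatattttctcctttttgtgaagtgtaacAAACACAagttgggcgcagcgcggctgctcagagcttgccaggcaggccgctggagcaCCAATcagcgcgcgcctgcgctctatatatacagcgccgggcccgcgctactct
H3f3b, chr11:116024505-116024754, minus strand: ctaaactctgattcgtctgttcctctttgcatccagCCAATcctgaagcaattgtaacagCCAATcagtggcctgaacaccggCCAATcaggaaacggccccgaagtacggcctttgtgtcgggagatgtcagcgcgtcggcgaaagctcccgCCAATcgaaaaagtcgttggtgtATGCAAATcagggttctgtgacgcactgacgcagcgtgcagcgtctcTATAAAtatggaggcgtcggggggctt
H3f3a, chr1:180813606-180813855, minus strand: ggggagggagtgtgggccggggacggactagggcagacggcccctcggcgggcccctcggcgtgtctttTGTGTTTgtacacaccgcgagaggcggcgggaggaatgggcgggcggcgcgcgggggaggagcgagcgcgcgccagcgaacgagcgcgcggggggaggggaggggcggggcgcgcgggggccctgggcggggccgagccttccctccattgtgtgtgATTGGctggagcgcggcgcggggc
The window of H1f0 held none of these letters and was 74.4% G and C. That of Hist1h1c held a CCAAT 54 bases and an AAACACA 112 bases before the start. That of H3f3b held 4 CCAAT, an octamer and a TATAAA, and that of H3f3a held 1 CCAAT and 1 AAACACA, both on the opposite strand, at 77.2% G and C. A match is a description of the letters and shows neither binding nor use. Only these exact letters were searched, so related forms of a motif are not marked.

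Promoters of the clusters were rich in the same letters, taken over the 300 bases from 250 before to 50 after the start. CCAAT was present in 84.3% of 51 replication-dependent promoters and 71.4% of 7 variant promoters, against 37.4% of all 32851 promoters in the RefSeq table. TATAAA was present in 60.8% of the replication-dependent promoters against 13.6% of all. The H1 box was present in 71.4% of 7 H1 promoters against 7.18% of all. These 7 include H1f0, without a match, and the testis gene Hist1h1t, with a match. The octamer was present in 38.5% of 13 replication-dependent H2B promoters, 15.8% of the other replication-dependent promoters and 1.74% of all.

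H2afz, the main H2A.Z gene here, was at 774 and 749 CPM under vehicle and 359 and 647 CPM under TAK-931. Both treated libraries were below both vehicle libraries, but they differed from each other by 1.81 times, and the nearest pair across groups by 1.16 times. The log2 fold change was -0.60 (SE 0.36), and it was -0.24 without TAK-931-1 and -1.11 without TAK-931-2, so its size rested on TAK-931-1. H2afv was at 62.4 and 60.8 CPM under vehicle and 73.0 and 47.9 CPM under TAK-931, 1 library above and 1 below the vehicle pair. Its log2 fold change of -0.03 changed sign under another scaling (0.02). Per kilobase, H2afz held 95% of the H2A.Z RNA in both vehicle libraries, and 88.3% and 95.4% under TAK-931.

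The macroH2A genes encode H2A proteins with a large additional domain, linked to silent chromatin. H2afy, which encodes macroH2A1, was at 241 and 226 CPM under vehicle and 217 and 172 CPM under TAK-931, a log2 fold change of -0.27 (SE 0.24). H2afy2, which encodes macroH2A2, rested on few reads, 11 and 5 counts under vehicle and 54 and 12 under TAK-931. Its exons overlap those of Aifm2, and the strand setting of the counting is not given in the sources used here, so its log2 fold change of 1.88 (SE 1.03) is uncertain. H2afy3 had 4, 0, 0 and 6 counts and was not tested.

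Over the 7 variant genes tested, the median log2 fold change was -0.27, against 0.02 over all genes tested. H1f0 and H3f3b were lower at an unadjusted p under 0.05, and none was higher, where 6.55% of all genes were lower and 11.6% were higher by that rule. The groups did not overlap for 4 genes that were lower (H1f0, H3f3b, H2afz and H2afy) and 1 that was higher (H2afy2), where 32.7% of all genes were lower and 30.0% higher without overlap. The summed CPM of the 8 variants was 3229 and 2927 under vehicle and 1645 and 1609 under TAK-931, a log2 ratio of means of -0.92 (exact permutation p = 0.333, two-sided). Without H1f0 the log2 ratio was -0.50, and per kilobase it was -0.69 with H1f0 and -0.41 without it.

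The replication-dependent genes were scarcely represented in these libraries. Their median level over the 4 libraries was 1.05 RPKM, against 166 RPKM for the variants. Of the 64, 35 reached 1 RPKM and 3 reached 10 RPKM, namely Hist1h1c, Hist1h4i and Hist1h2bc. Per kilobase, Hist1h1c alone gave 42% and 37.8% of the counted replication-dependent RNA under vehicle and 22.7% and 23.6% under TAK-931. These shares cover only RNA that could be assigned to single genes, which is limited as described below. Another 8 genes were at 0 in every library (Hist1h2bq, Hist1h2br, Hist1h2ao, Hist1h2ap, Hist1h4m, Hist2h3c2, Hist2h3c1 and Hist2h2aa1), and each of these overlaps another counted gene. A count of 0 allowed up to 3 counts, 0.153 to 0.182 CPM depending on the library, for counting error only. This bound takes counts as independent events and does not hold for genes whose reads cannot be assigned, such as these 8.

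**Figure D3:**
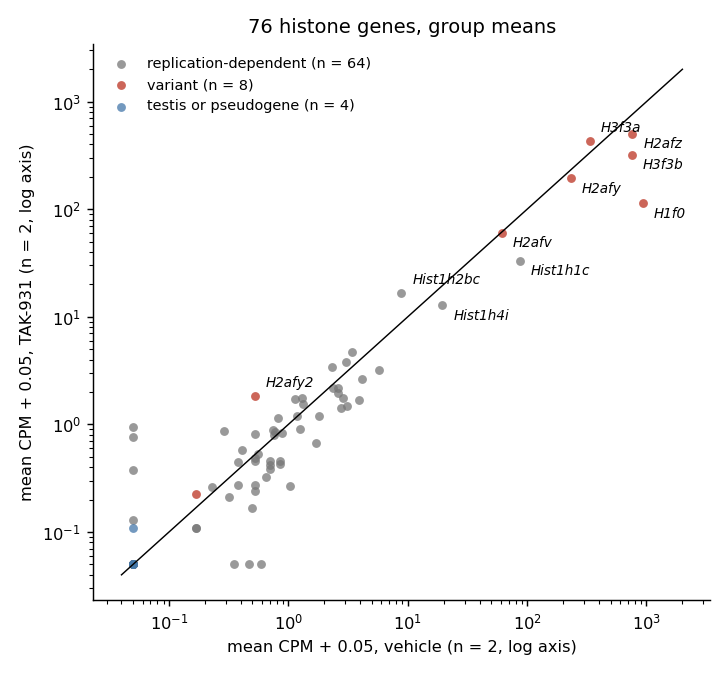
Group mean CPM plus 0.05 of the 76 histone genes under TAK-931 against vehicle (n = 2 each, both axes log), coloured by class, with the line of equal levels. The replication-dependent genes gather at low levels on both sides of the line, apart from Hist1h1c, and H1f0 lies furthest below the line among the abundant genes.

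These genes share long stretches of coding sequence, which limits how reads can be assigned to one of them. In a median of 39.0% of the 50-base stretches of a replication-dependent gene, the sequence was found in no other gene's transcripts, against 90.8% for the variants. For 42 of the 64 this share was under 50%, and for 5 it was 100%. The 8 genes at 0 had a median of 1.47%, and the 33 tested genes 44.4%. The share was 100% for H1f0 and H2afv, 80.9% for Hist1h1c, 89.4% for H3f3b and 57.4% for H3f3a. The difference between H3f3b and H3f3a limits their shares of H3.3 RNA given above. For H2afz the share was 41.2%, the lowest of the variants, which limits its level and its share of H2A.Z RNA given above. The alignment names in the file headers carry the tag uniq, read here as reads placed at a single site, and levels of the less unique genes are therefore uncertain.

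**Figure D4:**
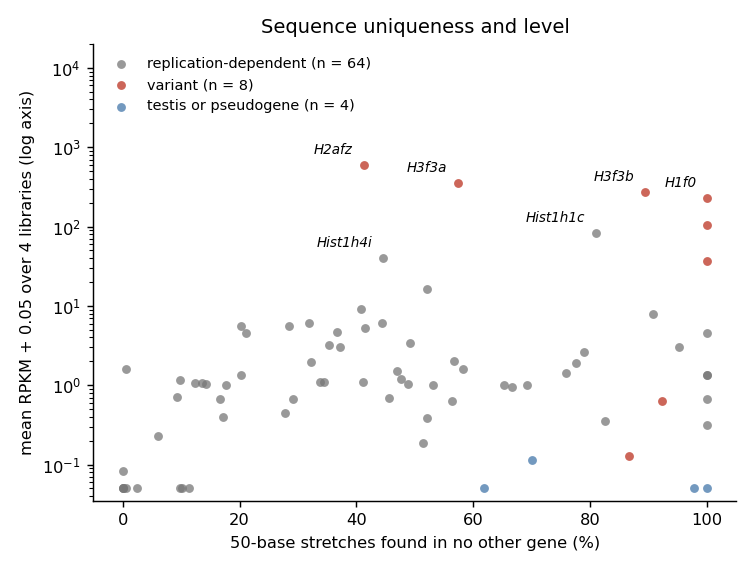
Mean RPKM plus 0.05 over the 4 libraries (log axis) of each histone gene against the percentage of its 50-base stretches that occur in no other gene's transcripts. Replication-dependent genes spread over the whole range with a median of 39.0%, and the variants have a median of 90.8%, with 6 of the 8 at 10 RPKM or more.

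The stem-loop that replaces the poly(A) tail can be read in the annotated transcripts. The letters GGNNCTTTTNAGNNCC were searched on the transcript strand of the GENCODE vM21 models (GRCm38, mm10) and were present in 43 of 64 replication-dependent genes (67.2%), in 0 of 8 variants, in 1 of the 4 other genes, and in 89 of 55341 gene names overall (0.161%). Of the 21 replication-dependent genes without a match, 13 have models that end fewer than 16 bases after the stop codon. Shown are genes of each histone type whose treated levels did not overlap with vehicle, together with Hist1h2bg as an H2B gene, written in the direction of transcription with the 16 bases of the stem-loop in capitals.
Hist1h1c, chr13:23739505-23739534, plus strand: tccaaaaGGCTCTTTTCAGAGCCaccactc
Hist1h2ae, chr13:23570661-23570690, minus strand: aaacaaaGGCTCTTTTCAGAGCCattcact
Hist1h2bg, chr13:23571836-23571865, plus strand: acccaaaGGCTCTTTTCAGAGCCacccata
Hist1h3c, chr13:23745040-23745069, minus strand: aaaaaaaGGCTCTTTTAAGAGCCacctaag
Hist1h4i, chr13:22040959-22040988, minus strand: acttaaaGGCCCTTTTTAGGGCCaccacaa
The form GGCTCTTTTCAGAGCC was the most frequent, in 26 of the 44 histone genes with a match, and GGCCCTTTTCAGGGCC was present in 7 genes, all of them H4 genes. In Hist1h1c the annotated transcript runs on for 840 bases after the stem-loop, and in Hist1h4i for 330 bases. How the RNA was selected before sequencing is not given in the sources used here, and its part in the low level of genes with a stem-loop was not tested.

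Of the 64 replication-dependent genes, 33 passed the filter on low counts, each through libraries of both groups. The 33 had a median log2 fold change of -0.27, with 12 above and 21 below 0, against 49.0% of all genes below 0. This median was not stable: it was 0.42 without Vehicle-2, over 41 genes that then passed the filter, and -0.72 without TAK-931-2. Hist1h1c was the only one of the 33 lower at an unadjusted p under 0.05 (3.03%, against 6.55% of all genes), and none was higher by that rule (against 11.6% of all genes). Treated levels were below both vehicle levels without overlap for 8 of the 33 (24.2%, against 32.7% of all genes) and above for 1, Hist1h2bc (against 30.0% of all genes). The share that was lower without overlap was thus no greater than in the background.

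Hist1h4i, the most abundant core histone gene of the clusters, was at 20.6 and 18.3 CPM under vehicle and 9.64 and 15.8 CPM under TAK-931. The groups were close without overlapping, and the log2 fold change was -0.61 (SE 0.39, unadjusted p = 0.183). It was -0.3 without TAK-931-1 and -1.04 without TAK-931-2. Hist1h3g was at 5.81 and 5.57 against 2.63 and 3.68 CPM, a log2 fold change of -0.85 (SE 0.51). Hist2h4 had the most negative log2 fold change of the class, -1.41 (SE 0.84), on levels of 1.90 and 1.44 CPM against 0.316 and 0.933 CPM. Its value was -0.84 without TAK-931-1, where Hist1h1c was more negative at -1.3, and -2.4 without TAK-931-2. Hist2h3b, at 4.62 and 3.06 against 0.527 and 2.74 CPM, and Hist1h3c, at 2.73 and 3.42 against 1.48 and 1.40 CPM, had values of -1.23 (SE 0.96) and -1.09 (SE 0.59). Without TAK-931-1 Hist2h3b was at -0.49 and Hist1h3c at -1.13. Without TAK-931-2 Hist2h3b was at -2.87 and Hist1h3c at -1.08. The last of the 8, Hist1h2ae, was at 4.27 and 3.84 against 2.63 and 2.57 CPM, with a log2 fold change of -0.64 (SE 0.53). Further H4 genes overlapped between groups: Hist1h4k had -0.70 (SE 0.75), Hist1h4b had -0.27 (SE 0.79), and Hist1h4j, at 0.237 and 1.38 CPM against 0 and 0.758 CPM, had -1.09 (SE 1.79). The value of Hist1h4k was -0.16 without TAK-931-1 and -1.58 without TAK-931-2.

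Of the 8 tested H2B genes, 6 had a log2 fold change above 0 and 2 below, Hist1h2bk (-0.43, SE 0.62) and Hist2h2bb (-0.11, SE 0.63), and none passed an unadjusted p under 0.05. Over all genes, 49.0% were below 0 and 18.1% passed that threshold. The signs of Hist1h2bj and Hist1h2bg, which were above 0, changed with a library left out, as given below. Hist1h2bk and Hist2h2bb were chosen for naming after their values were seen. Hist1h2bc was at 11.4 and 6.23 CPM under vehicle and 20.9 and 12.1 CPM under TAK-931, with a log2 fold change of 0.90 (SE 0.52, unadjusted p = 0.151). The gap between the lower treated and the higher vehicle library was small beside the spread of the vehicle pair. Its annotated transcript has 742 bases after the stop codon and no match to the stem-loop letters. Hist2h2be, which also lacks a match, with 2192 bases after the stop codon, was at 2.49 and 3.48 against 4.11 and 3.38 CPM, 0.33 (SE 0.55) on the log2 scale.

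Hist1h2bj, at 0.593 and 1.56 against 2.42 and 0.933 CPM, and Hist1h2bg, at 0.949 and 3.60 against 3.79 and 2.98 CPM, had log2 fold changes of 0.64 (SE 0.90) and 0.57 (SE 0.83) with overlapping groups. Hist1h2bj was at -0.21 without TAK-931-1, and Hist1h2bg at -0.09 without Vehicle-1. Hist3h2a, an H2A gene at 3.26 and 3.42 against 6.59 and 2.74 CPM, had 0.48 (SE 0.65), or -0.29 if TAK-931-1 was left out. Hist2h2ac, another H2A gene, was at 0.949 and 0.599 against 0.896 and 1.28 CPM, with 0.49 (SE 0.73).

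By histone type, the median log2 fold change of the tested replication-dependent genes was -0.80 for 4 H1 genes, -0.45 for 8 H2A genes, 0.31 for 8 H2B genes, -0.47 for 6 H3 genes and -0.61 for 7 H4 genes. The difference between types was not tested. The summed H2B level was 22.1 and 24.8 CPM under vehicle and 38.7 and 26.8 CPM under TAK-931, so that TAK-931-1 made most of the difference. The summed H2A level was 12.6 and 15.3 CPM under vehicle and 14.3 and 10.3 CPM under TAK-931, with overlapping groups. The summed H3 level was 16.6 and 17.2 against 7.32 and 13.9 CPM, the summed H4 level 29.5 and 32.8 against 17.2 and 27.4 CPM, and both were again furthest from vehicle in TAK-931-1.

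**Figure D5:**
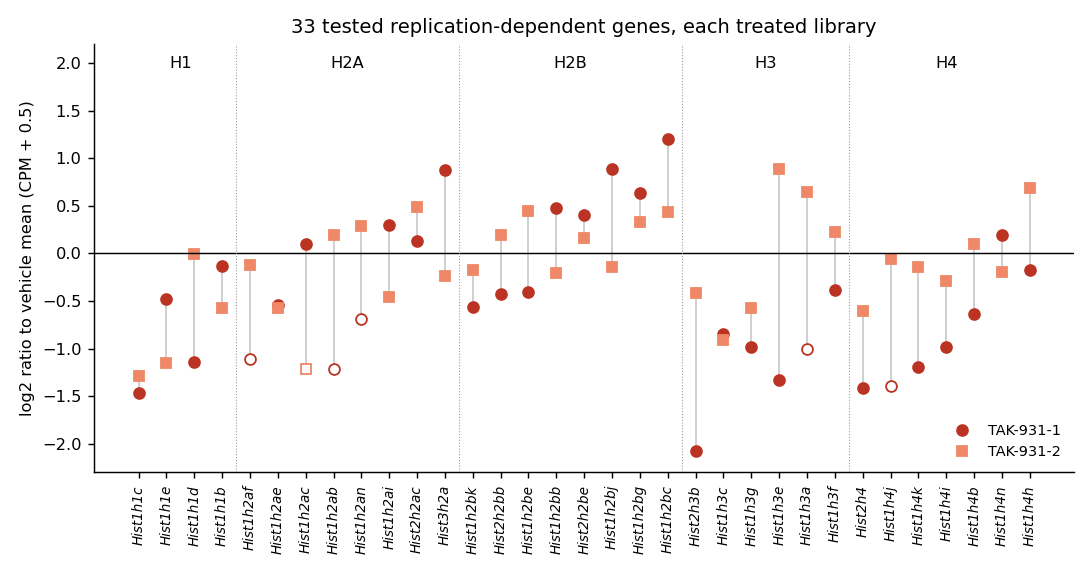
Log2 ratio to the vehicle mean, with 0.5 added to each CPM, for the 33 tested replication-dependent genes in TAK-931-1 and TAK-931-2, joined by a grey line per gene, with open symbols for a library at or under 3 counts. The medians were -0.54 and -0.14 for the first and second treated library, and for most genes other than Hist1h1c the treated libraries are far apart or near 0.

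The summed level of all 64 replication-dependent genes was 173 and 182 CPM under vehicle and 112 and 117 CPM under TAK-931. On this whole-library scale the groups were apart by more than their spread, with means of 178 ± 6.29 and 114 ± 3.21 CPM (SD, n = 2 each) and a log2 ratio of -0.64 (exact permutation p = 0.333, two-sided). This sum was not set against the plasma cell markers. Without Hist1h1c the sums were 85.3 and 97.3 against 81.3 and 81.6 CPM, and the log2 ratio was -0.16, over histone types whose sums differed in direction. Hist1h1c thus carried most of the class difference in CPM. Per kilobase the log2 ratio was -0.61 with it and -0.26 without it.

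The S-phase genes were set beside these sums on the same whole-library scale, without a ratio to the plasma cell markers. All 8 plasma cell markers were also below both vehicle libraries in TAK-931-1, against 3 in TAK-931-2. The part of tissue composition in the S-phase values was not tested. The 12 proliferating cell markers, which include Pcna and the Mcm genes of the replicative helicase, summed to 3136 and 2996 CPM under vehicle and to 1748 and 2512 CPM under TAK-931. All 12 were below both vehicle libraries in TAK-931-1, as were 8 of them in TAK-931-2 (47.4% and 44.4% of all genes), and the list had a median log2 fold change of -0.42. The summed H3 and H4 levels above were likewise lower in TAK-931-1 than in TAK-931-2, whereas the summed H2A and H2B levels were higher in TAK-931-1. The part of proliferation in the histone values was not tested.

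The testis genes Hist1h1t, Hist1h2aa and Hist1h2ba were at 0 in every library, and the pseudogene Hist3h2bb-ps had 2 counts in TAK-931-2 and 0 elsewhere.

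A further list held genes that make or degrade replication-dependent histone mRNA. Sympk was left out of it by a misspelled symbol. Of the 13 measured, 0 had an unadjusted p under 0.05 in edgeR in either direction, where 18.1% of all genes did, and 0 an adjusted p under 0.05. Without overlap, 6 were lower and 3 higher (32.7% and 30.0% of all genes), and the median log2 fold change was -0.17. Slbp, whose product binds the stem-loop, was at 98.6 and 87.3 CPM under vehicle and 94.6 and 89.2 CPM under TAK-931, a log2 fold change of -0.02 (SE 0.21) that was 0.03 under another scaling. Npat, which activates transcription of the clusters, was at 29.3 and 28.7 against 37.7 and 57.7 CPM, with 0.72 (SE 0.29, unadjusted p = 0.0664). Lsm11, a part of the U7 particle that directs cleavage of the pre-mRNA, was at 27.6 and 26.7 against 17.1 and 21.2 CPM, with -0.51 (SE 0.27).

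Histone chaperones carry histones to and from DNA. Of 20 genes, 15 had a log2 fold change below 0, 4 were lower and 2 higher at an unadjusted p under 0.05 (6.55% and 11.6% of all genes), 12 were lower and 4 higher without overlap (32.7% and 30.0% of all genes), and the median log2 fold change was -0.43, -0.19 without TAK-931-1 and -0.77 without TAK-931-2. The 4 that were lower were Asf1a (-0.96), Nasp (-0.92), Vps72 (-0.87) and Chaf1b (-0.85), of which ASF1A, NASP and CHAF1B handle H3 and H4, and VPS72 handles H2A.Z. Those that were higher were Cabin1 (0.69), a partner of HIRA in H3.3 deposition, and Srcap (0.66), the motor that places H2A.Z. These 6 were chosen for naming after their values were seen.

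HIRA, DAXX and ATRX place H3.3 outside replication. Hira was at 108 and 112 CPM under vehicle and 54.9 and 89.5 CPM under TAK-931 (log2 fold change -0.61, SE 0.31), whereas Daxx was at 65.2 and 60.0 against 82.3 and 102 CPM (0.55, SE 0.22). Atrx, the partner of DAXX, was at 105 and 86.5 against 127 and 114 CPM (0.32, SE 0.23). For Asf1b the log2 fold change was -0.43 (SE 0.28), and for Chaf1a, a subunit of the factor that places H3 behind the replication fork, it was -0.15 (SE 0.29).

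Among histone genes outside the symbols used, H2afx, which encodes the H2A.X marked at DNA breaks, was at 155 and 162 CPM under vehicle and 79.9 and 62.8 CPM under TAK-931. The groups did not overlap, and the log2 fold change was -1.15 (SE 0.23, unadjusted p = 0.00611), with an adjusted p of 0.275 in edgeR and 0.018 in DESeq2, in a range over alternatives of 0.000179 to 0.915. H2afj was at 108 and 112 against 164 and 122 CPM, with 0.38 (SE 0.25). H1fx, a further linker histone gene, was at 0.415 and 1.02 CPM under vehicle and at 7.43 and 0.408 CPM under TAK-931, so that its log2 fold change of 2.44 (SE 1.5) rested on 1 library and was -0.80 without it. Cenpa, the centromeric H3, was at 99.4 and 101 against 117 and 78.6 CPM, with -0.04 (SE 0.28), and its sign changed with the scaling (0.01).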

How the data were processed

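RNA was sequenced from 4 J558 allografts, 2 per group. The submitters' processing notes name STAR 2.6.1c, featureCounts and mm10, without stating their roles. The authors deposited raw counts per gene, 1 table per library, with a gene length that was used here for RPKM. The annotation, strand setting and RNA selection are not given in the sources used here. Odd numbers made up 17.9% to 23.9% of the counts from 1 to 20, fewer than the even numbers, as when both mates of a pair are counted, so halved counts were tried as an alternative.

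Genes were filtered with filterByExpr (minimum count 10), leaving 13669, scaled by TMM and tested with edgeR 4.0.16 (robust quasi-likelihood, R 4.3.3, two-sided, adjusted over all genes tested, threshold 0.05). DESeq2 1.42.0 and limma-voom 3.58.1, other scalings and filters, a replicate block and leaving out each library were tried as alternatives. The steps were tested on simulated data. Sums over genes were compared with exact permutation tests over the libraries. The labels call the replicates independent samples, the study plots its tumours by individual mouse, and it took Vehicle-1 and TAK-931-1 as representatives, so p-values measure the spread between these tumours.

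The histone genes, the lists and the classes were chosen with earlier results of these data known. Named were the 12 replication-dependent genes highest in CPM, all variants with at least 10 counts, the 4 genes furthest from 0 in each direction, and fixed genes of the chaperone, processing and other histone lists. Of 14 processing list symbols, 1 was not matched because Sympk had been misspelled. CPM was used to choose these genes and for the shares of Jchain within the marker sum. Sequences came from RefSeq (promoters, GRCm38.p6, 68 members matched, 61 used because the starts were within 100 bases) and GENCODE vM21.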

Additional observations from a re-analysis of the deposited data

How the results depend on the processing

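H1f0, Hist1h1c and H3f3b were lower under every alternative run, all of which kept scaling to the whole library. Per CPM of plasma cell marker without Jchain, H1f0 alone was lower in both treated libraries. On that scale TAK-931-1 lay between the vehicle libraries for Hist1h1c and above both for H3f3b. The number of histone genes at an adjusted p under 0.05 was 0 in edgeR and 3 in DESeq2. It ranged from 0 to 9 when 1 library was left out, which leaves a lone sample assumed to vary like the other group, with 6 of 48 tested without TAK-931-1 and 9 of 52 without TAK-931-2. Those fits called 28.7% and 58.1% of all genes, so the histone shares of 12.5% and 17.3% were below the background, and the lowest adjusted p-values given for Hist1h1c, H3f3b and H2afx come from them. The replication-dependent genes at an unadjusted p under 0.05 in edgeR went from 1 to 2 with no filter, where 15.9% of all genes passed. The variants ranged from 1 to 5, with 5 without either treated library, where 40.8% (without TAK-931-1) and 63.1% (without TAK-931-2) of all genes passed, and 1 without either vehicle library, where 6.86% and 6.98% did. With a library left out, the median log2 fold change of the replication-dependent genes ranged from -0.72 to 0.42, and was 0.42 without Vehicle-2, and that of the chaperones from -0.77 to -0.19. The cause was not tested. The signs of H2afv, Slbp and Cenpa changed, with values of 0.02, 0.03 and 0.01 under median-of-ratios scaling and in DESeq2, 0.05, 0.06 and 0.04 with at least 10 counts in every library, and 0.01 for H2afv and for Slbp with halved counts. Signs also changed with a library left out for Hist3h2a (-0.29 to 0.96), Hist1h2bg (-0.09 to 1.80), Hist1h4b (-0.82 to 0.57), H3f3a (-0.06 to 0.67), H2afv (-0.37 to 0.22), Hist1h4j (-6.84 to 0.64), Hist1h2bj (-0.21 to 1.46), Slbp (-0.12 to 0.08), Chaf1a (-0.51 to 0.12), H1fx (-0.80 to 3.34) and Cenpa (-0.36 to 0.20). The -6.84 of Hist1h4j, without TAK-931-2, rests on 0 counts in TAK-931-1 and is not a measured size.

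The labels number the libraries of both groups, but deviations of same-numbered libraries had a correlation of 0.02, so the numbers do not show a pairing. With a replicate block, 144 of all genes (1.05%) and 1 histone gene were called. That gene was H1f0, at -3.09 with an adjusted p of 0.0411.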
